A study of Homo sapiens with 6 samples.

Results

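The 9 genes described here act in base excision and single-strand break repair after a DNA glycosylase has removed a damaged base: *APEX1* and *APEX2* (AP endonucleases), *PARP1* and *PARP2* (break sensors), *XRCC1* (scaffold), *POLB* and *LIG3* (gap filling and sealing), and *APTX* and *APLF* (end processing and accessory factors). They were chosen by name for these roles, with earlier results of these data known. Each matched exactly 1 row by its Ensembl identifier among the 58336 genes of the count table. All 9 passed the filter on low counts, which left 15844 genes tested. The RNA came from A2780, an established ovarian cancer cell line, given either the vehicle DMSO (3 libraries) or, for 48 h, 6 µM TH588 (3 libraries), an inhibitor of MTH1. The labels give a duration for TH588 only. MTH1, the product of *NUDT1*, hydrolyses oxidized purine nucleotides so that they are not built into DNA. The study asked how such inhibitors act on ovarian cancer cells, platinum-resistant ones included, and stained *XRCC1* foci in cells given a related compound as a readout of base excision repair. The transcripts of the repair genes bear on neither protein nor repair activity, which were not measured in these files.

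Base excision repair begins when a glycosylase cuts a damaged base from its sugar. An AP endonuclease then nicks the backbone at the site without a base, and the resulting single-strand break is bound by *PARP1* or *PARP2*, which use NAD+ to build poly(ADP-ribose) chains. These chains gather *XRCC1*, which holds DNA polymerase beta (*POLB*) and DNA ligase III (*LIG3*) at the gap. Blocked ends are cleaned first by enzymes such as aprataxin (*APTX*), and in the long-patch branch the polymerases, *PCNA*, *FEN1* and *LIG1* of the replication machinery take over.

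Of the 9 genes, 4 fell with TH588 (*PARP1*, *PARP2*, *APEX2* and *APEX1*), 3 rose (*APLF*, *POLB* and *LIG3*) and 2 were not called (*XRCC1* and *APTX*) at an adjusted p under 0.05 in edgeR's quasi-likelihood test. The changes were widespread in these cells, so these counts are to be read against a high background. Of all genes tested, 49.6% were called, 24.2% higher and 25.3% lower. Lower genes made up 51.1% of these calls, and 39.6% under scaling by library size only. The DMSO and TH588 libraries did not overlap in 7 of the 9 genes, against 57.7% of all genes tested. The median log2 fold change was -0.21 over the 9 genes and 0.02 over all genes tested. Without DMSO replicate A or without TH588 replicate C, 4 of the 9 genes were called, and the number called higher dropped from 3 to 1 in each case. The share of all genes tested that was called was also lower then, at 42.8% and 42%. *PARP1*, *PARP2*, *APEX2* and *APLF* were called under all 17 alternatives of processing.

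Levels are given as CPM, which here means counts scaled to the library size after TMM normalization, or as RPKM, the same value per kilobase of the deposited gene length. Total counts ranged from 28537837 in TH588 replicate A to 99074175, and a floor of 3 counts corresponded to between 0.0276 and 0.112 CPM. TH588 replicate A also stood apart in the small nucleolar RNA *SNORD3A*, whose share of its counts was 21.94%, while the other libraries ranged from 7.68% to 12.95%. Without that library, 7 of the 9 genes were called, as with all libraries, and 48.5% of all genes tested. The study reports authentication of its cell lines by short tandem repeats. The counts alone do not establish the line's identity. Of 10 ovarian cancer markers, 7 (*PAX8*, *WT1*, *KRT7*, *KRT8*, *KRT19*, *MUC16* and *MSLN*) were too low to be tested, while *VIM* was abundant (3586 CPM with DMSO). *EPCAM* (from 0.644 to 4.74 CPM) and *KRT18* rose with TH588. Of 9 markers of other cells, 5 were tested and 2 rose, the collagen gene *COL3A1* (from 1733 to 2279 CPM) and the monocyte gene *CD14* (from 0.0649 to 0.336 CPM, named after its values were seen). The summed level of these 9 markers was 1579 to 1907 CPM with DMSO and 1866 to 2607 CPM with TH588. Nearly all of it was *COL3A1*, at 1573 to 1901 CPM with DMSO and 1862 to 2600 CPM with TH588. The part of these markers in the results was not tested. The immune and endothelial genes *PTPRC*, *CD3E*, *PECAM1* and *VWF* were too low to be tested.

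**Figure D1:**
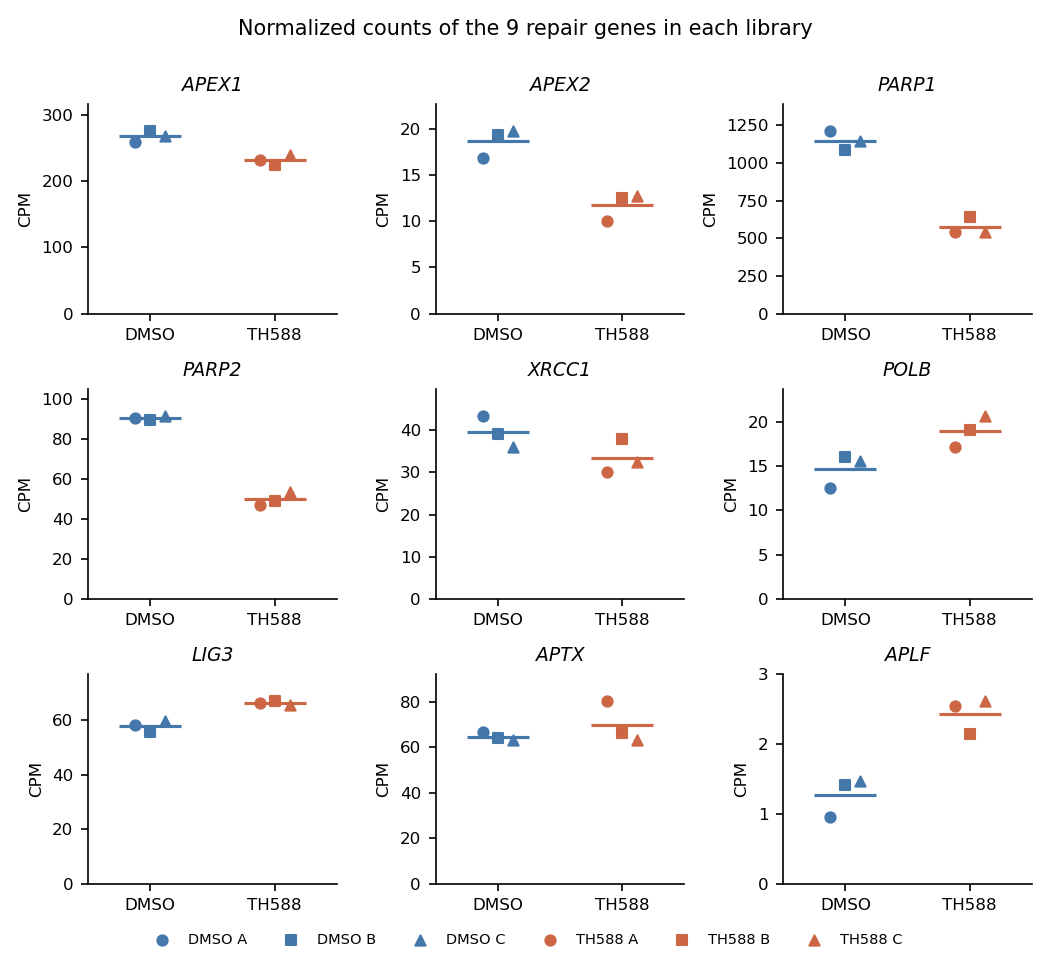
CPM (TMM library size) of each of the 9 genes in the 3 DMSO and 3 TH588 libraries, 1 panel per gene with its own axis from 0; symbols mark the replicate letter and lines the group mean. *PARP1*, *PARP2*, *APEX2* and *APEX1* lie lower in every TH588 library, *APLF*, *POLB* and *LIG3* lie higher, and the groups overlap for *XRCC1* and *APTX*.

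The break sensors gave the largest falls. *PARP1* (ENSG00000143799) lies on the minus strand of chromosome 1 of GRCh38 from 226360691 to 226408079 and makes most of the poly(ADP-ribose) that follows a break. In the order of replicates A, B and C, here and for all genes that follow, the DMSO libraries held 1211, 1085 and 1145 CPM, and the TH588 libraries 540.6, 641.2 and 540.1 CPM. Every TH588 library thus lay far below every DMSO library, with replicate B the highest of the TH588 libraries. Means were 1147 ± 63.0 CPM for DMSO and 574 ± 58.3 CPM for TH588 (SD, n = 3 each). This gave a log2 fold change of -1.0, with a standard error of 0.09 and a 95% interval of -1.20 to -0.80 (edgeR adjusted p = 2.87e-06). Of all genes tested, 5.36% had a lower log2 fold change.

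*PARP2* (ENSG00000129484; chromosome 14, plus strand, 20343582 to 20357905) encodes the smaller relative that also makes poly(ADP-ribose) at breaks. The DMSO libraries held 90.8, 89.8 and 91.7 CPM, and the TH588 libraries 47.0, 49.3 and 53.7 CPM. The DMSO libraries were within about 1 CPM of their mean, with an SD of 0.939 CPM, and the TH588 libraries were all well below them. The log2 fold change was -0.86 (standard error 0.08, 95% interval -1.03 to -0.69, edgeR adjusted p = 3.07e-06). The ratio of *PARP1* to *PARP2* per length was 7.63, 6.91 and 7.14 with DMSO and 6.58, 7.44 and 5.75 with TH588, so the groups overlapped (difference in mean log2 ratio -0.14, exact two-sided permutation p = 0.3).

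As in bulk RNA generally, fewer cells that express a gene and less of its RNA per cell cannot be told apart here. Cell cycle genes moved with these falls: all 20 S phase markers were lower with TH588 and their summed level was 1055 to 1204 CPM, against 2822 to 2959 CPM with DMSO. The largest falls among them were in *CCNE2* (-2.06) and *CDC6* (-1.95), on the log2 scale. All 18 p53 targets were higher, with a summed level of 1695 to 1809 CPM against 403.6 to 418.1 CPM, led by *GDF15* (log2 fold change 5.85) and *CDKN1A* (4.71), which encodes the cell cycle inhibitor p21. The part of cell cycle position and of the p53 response in the changes of the repair genes was not tested.

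The promoters of the genes that changed most are shown for the upstream letters on which general promoter factors are known to bind. The sequences are from RefSeq's GRCh38.p14 table, written 5′ to 3′ on the strand of the gene and, except for *PARP2*, ending before any annotated exon. Capitals mark a CCAAT box (CCAAT), a GC box (GGGCGG) or a cyclic AMP response element (TGACGTCA), read on either strand. For *PARP2* all of the upstream window lies in annotated exons of this or a neighbouring gene, so only the short stretch around its cyclic AMP response element is shown. That stretch lies inside the deposited gene, which starts at 20343582, and its end passes the RefSeq start.
PARP1 chr1:226408155-226408343, minus strand: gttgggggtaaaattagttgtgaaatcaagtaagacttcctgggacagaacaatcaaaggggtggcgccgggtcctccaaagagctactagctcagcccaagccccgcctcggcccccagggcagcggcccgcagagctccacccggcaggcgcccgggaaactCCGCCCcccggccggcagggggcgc
PARP2 chr14:20343610-20343639, plus strand: gagcgggttgaTGACGTCAgcgttcgaatt
APEX2 chrX:55000113-55000356, plus strand: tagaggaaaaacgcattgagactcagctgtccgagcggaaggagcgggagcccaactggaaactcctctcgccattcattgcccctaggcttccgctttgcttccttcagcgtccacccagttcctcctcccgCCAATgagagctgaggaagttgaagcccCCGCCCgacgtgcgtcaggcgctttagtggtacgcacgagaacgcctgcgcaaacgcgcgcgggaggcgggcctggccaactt
APLF chr2:68467335-68467560, plus strand: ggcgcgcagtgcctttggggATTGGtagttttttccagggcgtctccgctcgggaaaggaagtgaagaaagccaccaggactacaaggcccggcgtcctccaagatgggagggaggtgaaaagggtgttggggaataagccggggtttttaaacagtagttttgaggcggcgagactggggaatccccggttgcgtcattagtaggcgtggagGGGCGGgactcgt

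RefSeq promoters, from 250 bases before to 50 after the start, were matched for 8 of the 9 genes, with 2 promoters for *APTX* and thus 9 in all. For *XRCC1*, as for *PARP2*, all 250 upstream bases lie in annotated exons. The windows of *XRCC1* and of 1 *APTX* promoter lie inside the deposited genes, and both are counted here. A GC box was found in 8 of the 9 promoters, against 45% of all 35116 promoters and 64.1% of promoters of tested genes. In *PARP1* it lies 86 and 47 bases before the start, in *APEX2* 89, in *APLF* 37 and in *LIG3* 58. A CCAAT box was found in 5 promoters, among them those of *APEX2*, *APLF* and *APEX1*, against 34.6% of all promoters. The cyclic AMP response element, present in 1.85% of all promoters, was found in *PARP2*, 14 bases before the RefSeq start, and in 1 of the *APTX* promoters. Letters of an E2F site (TTTCCCGC, TTTGGCGC, TTTGCCGC or TTTCGCGC) were in none of the 9 promoters and in 3.31% of all. The p53 response element was searched as 2 half-sites without mismatch, at most 13 bases apart. This strict pattern was in only 0.0285% of all promoters and in none of the 9. At so low a share, its absence from 9 promoters carries no information on p53 binding. GC boxes were thus found in promoters of genes that fell and of genes that rose, and *APEX1* was the matched gene without one. A match is a description of letters, not of a bound site.

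The AP endonucleases both fell, by unequal amounts. *APEX2* (ENSG00000169188; chromosome X, plus strand, 55000357 to 55009057) encodes APE2, which has weak AP endonuclease activity and resects 3′ ends. The DMSO libraries held 16.9, 19.3 and 19.7 CPM and the TH588 libraries 9.98, 12.5 and 12.7 CPM. Replicate A was the lowest of its group in both treatments, and the groups did not overlap. The log2 fold change was -0.66 (standard error 0.12, 95% interval -0.92 to -0.40, edgeR adjusted p = 0.000664).

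*APEX1* (ENSG00000100823; chromosome 14, plus strand, 20455191 to 20457772) encodes APE1, the main AP endonuclease of human cells. Its levels were 259.4, 275.2 and 268 CPM with DMSO and 231.8, 224.7 and 239.4 CPM with TH588, a small shift in which the groups still did not overlap. The log2 fold change was -0.21 (standard error 0.07, edgeR adjusted p = 0.0351), and the call was lost under 9 of the 17 alternatives, with -0.10 (adjusted p = 0.395) under scaling by library size only. The ratio of *APEX1* to *APEX2* per length rose from 26.5, 24.5 and 23.4 with DMSO to 40.0, 31.0 and 32.4 with TH588. These groups did not overlap, and the exact two-sided permutation p was 0.1, the smallest that 3 libraries against 3 allow (0.12 adjusted over 6 ratios).

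*XRCC1* (ENSG00000073050; chromosome 19, minus strand, 43543040 to 43580473), the scaffold, did not pass the test. Its levels were 43.4, 39.1 and 36.0 CPM in the vehicle libraries and 30.2, 37.9 and 32.5 CPM in the treated ones. The TH588 library of replicate B lay inside the DMSO range, while the other two lay below it. The log2 fold change was -0.23 (standard error 0.10, 95% interval -0.46 to -0.005, edgeR adjusted p = 0.0837), so a fall of up to 0.46 on the log2 scale lies within the interval. Without TH588 replicate B the value was -0.33 with an edgeR adjusted p of 0.0192.

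The partners that *XRCC1* holds at the gap both rose. *POLB* (ENSG00000070501; chromosome 8, plus strand, 42338454 to 42371808) encodes the polymerase that fills the short gap and removes the sugar remnant. The DMSO libraries held 12.6, 16.1 and 15.6 CPM and the TH588 libraries 17.2, 19.1 and 20.7 CPM. The lowest TH588 library was only slightly above the highest DMSO library. The log2 fold change was 0.37 (standard error 0.12, 95% interval 0.11 to 0.63, edgeR adjusted p = 0.0223), and it was not called without DMSO replicate A (0.29, adjusted p = 0.0779) or without TH588 replicate C (0.33, adjusted p = 0.0737).

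*LIG3* (ENSG00000005156; chromosome 17, plus strand, 34980494 to 35009743) encodes the ligase that seals the nick in the nucleus and in mitochondria. Its levels were 58.4, 55.5 and 59.6 CPM with DMSO and 66.4, 67.0 and 65.5 CPM with TH588, with an SD of only 0.767 CPM in the TH588 group. The rise was small but wider than the spread of either group (log2 fold change 0.20, standard error 0.07, edgeR adjusted p = 0.0425). It was lost when any library other than TH588 replicate A was left out. Of its exon bases, 30.5% overlap other genes, chiefly *RFFL* on the opposite strand, whose mean was 2.35 CPM in DMSO and 2.54 CPM in TH588 libraries (edgeR adjusted p = 0.588).

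Scaffold and partners were also compared within each library. The ratio of *XRCC1* to *LIG3* per length was 2.78, 2.63 and 2.26 with DMSO and 1.70, 2.11 and 1.85 with TH588. The ratio of *XRCC1* to *POLB* per length was 4.10, 2.89 and 2.74 with DMSO and 2.08, 2.36 and 1.86 with TH588. In both, every TH588 library lay below every DMSO library, by -0.44 and -0.61 in mean log2 ratio (exact two-sided permutation p = 0.1 for each, 0.12 adjusted over 6 ratios).

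The accessory factors differed from each other. *APTX* (ENSG00000137074; chromosome 9, minus strand, 32972606 to 33025168) encodes aprataxin, which removes the AMP left by a failed ligation. Levels of 66.8, 64.2 and 63.4 CPM in the DMSO libraries compared with 80.4, 66.2 and 63.3 CPM in the TH588 libraries. Replicate A alone was high among the TH588 libraries, and replicate C was at the level of DMSO. The log2 fold change was 0.11 (edgeR adjusted p = 0.371), and 0.01 (adjusted p = 0.909) without TH588 replicate A.

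*APLF* (ENSG00000169621; chromosome 2, plus strand, 68467561 to 68655862) encodes a factor that binds poly(ADP-ribose) and histones and works with both *XRCC1* and the end-joining machinery. It was the scarcest of the 9 genes, with 78, 116 and 137 counts in the DMSO libraries and 68, 233 and 218 in the TH588 libraries. Scaled to library size these were 0.949, 1.41 and 1.46 CPM with DMSO and 2.54, 2.14 and 2.61 CPM with TH588. The low raw count of TH588 replicate A thus came with the shallowest library, and its scaled level was among the highest. Means were 1.27 ± 0.282 CPM for DMSO and 2.43 ± 0.253 CPM for TH588 (SD, n = 3 each). The rise was 0.92 on the log2 scale, with a standard error of 0.21 and a 95% interval of 0.46 to 1.39 (edgeR adjusted p = 0.00334). Of its exon bases, 22.8% overlap other genes, chiefly *PROKR1* on the same strand, which had 0 counts in every library.

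**Figure D2:**
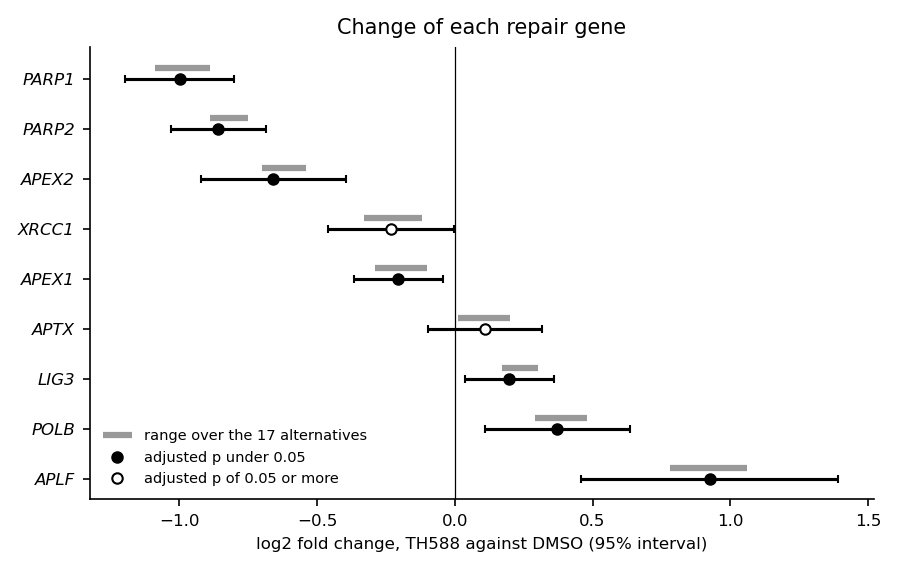
Log2 fold change of each of the 9 genes, TH588 against DMSO, from edgeR's quasi-likelihood test on 3 libraries per group; bars are 95% intervals, filled points have an adjusted p under 0.05, and grey lines give the range over 17 alternatives. No gene crosses 0 over that range, and *APTX* comes nearest, at 0.01 to 0.20. *PARP1*, *PARP2* and *APEX2* (left of 0) and *APLF* (right of 0) were called under every alternative.

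Per kilobase of length, *PARP1* and *APEX1* stood far above the other genes. With DMSO, *PARP1* stood at 160 ± 8.78 RPKM and *APEX1* at 141.8 ± 4.19 RPKM (SD, n = 3 each), above 98.6% and 98.5% of all genes tested. *PARP2* (22.2 RPKM), *APTX* (17.1 RPKM), *XRCC1* (11.4 RPKM), *APEX2* (5.74 RPKM), *LIG3* (4.47 RPKM) and *POLB* (3.59 RPKM) followed, and *APLF* was last at 0.178 ± 0.0395 RPKM. *PARP1* was 897 times as abundant per length as *APLF* and 7.22 times as abundant as *PARP2*. No neighbours in this order overlapped in their library ranges.

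With TH588 the order per length changed at 3 places. *APEX1* (123 ± 3.90 RPKM) stood above *PARP1* (80.1 ± 8.13 RPKM), *APTX* (18.5 RPKM) above *PARP2* (12.2 RPKM), and *APEX2* (3.61 RPKM) dropped below both *LIG3* (5.13 RPKM) and *POLB* (4.63 RPKM). Neighbours again did not overlap in their ranges. The order depends on the deposited gene lengths. In CPM, *PARP1* (574 CPM) stayed above *APEX1* (231.9 CPM) with TH588, and *LIG3* (57.8 CPM) lay above *APEX2* (18.6 CPM) already with DMSO. The moves of *APTX* above *PARP2* and of *POLB* above *APEX2* were also seen in CPM. The share of *PARP1* in the summed RPKM of the 9 genes went from 41.8% to 45.5% with DMSO to 29.4% to 34% with TH588.

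**Figure D3:**
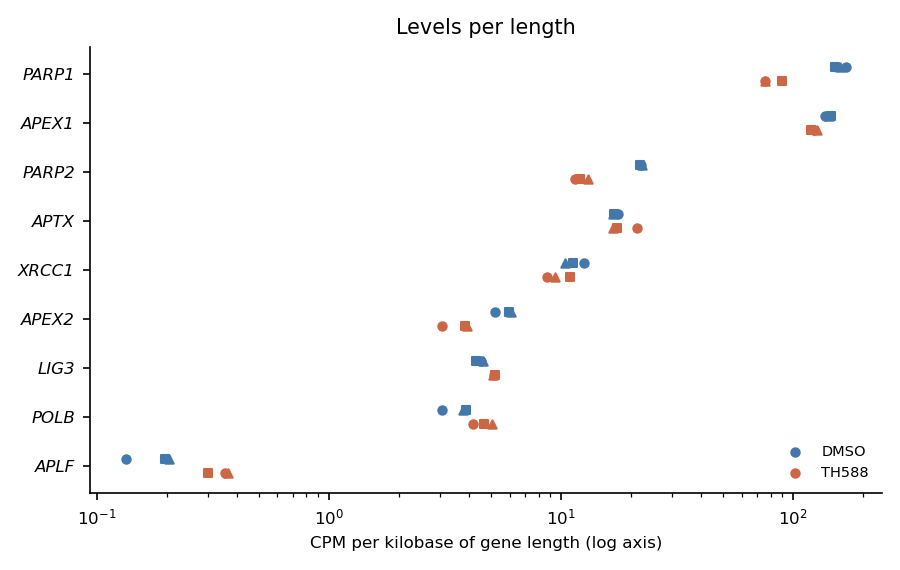
CPM per kilobase of deposited gene length (log axis) of the 9 genes in each library, DMSO above and TH588 below on each line, with symbols for the replicate letter. *PARP1* and *APEX1* stand apart at the high end and *APLF* at the low end, and *PARP1* moves from above to below *APEX1* with TH588.

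The genes that act before and after these steps were counted from lists written by role. Each count is to be read against the 24.2% of all genes tested that were called higher and the 25.3% called lower. Among 11 DNA glycosylases, which start the pathway, 3 rose and 7 fell, with a median log2 fold change of -0.39. *NEIL3* fell from 16.2 to 6.49 CPM (log2 fold change -1.31, edgeR adjusted p = 4.04e-06) and *UNG*, which removes uracil, fell from 68.6 to 35.3 CPM (-0.96, adjusted p = 3.18e-06). *OGG1*, which removes 8-oxoguanine opposite cytosine, fell by less, from 37.2 ± 0.663 to 30.7 ± 1.56 CPM (-0.28, adjusted p = 0.0117). *NEIL1* rose from 2.31 to 5.01 CPM (1.13, adjusted p = 0.000196) and *SMUG1*, a further uracil glycosylase, from 2.79 to 3.63 CPM (0.38, adjusted p = 0.042).

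The long-patch branch was mostly lower. Of its 20 genes, 18 fell, 1 rose and 1 (*RPA3*) was not called, with a median log2 fold change of -0.99. *FEN1*, which cuts the displaced flap, fell from 68.2 ± 0.662 to 26.0 ± 4.79 CPM (-1.38, edgeR adjusted p = 1.61e-06), *PCNA*, the sliding clamp, from 191.9 to 113.1 CPM (-0.76, adjusted p = 1.29e-05) and *LIG1* from 165.2 to 116.4 CPM (-0.50, adjusted p = 0.00233). *POLE2* and *POLD3*, subunits of the replicative polymerases, fell most, by 1.48 and 1.47 on the log2 scale. The 1 gene that rose, *POLD4*, a small subunit of polymerase delta, was named after its values were seen. It went from 0.338 to 1.32 CPM (1.96, adjusted p = 0.000793). The S phase markers, whose summed level is given above and which hold none of these genes, fell in the same libraries, and their part in these falls was not tested.

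The 2 branches were set side by side by ratios within each library. The ratio of *LIG3* to *LIG1* per length was 0.166, 0.185 and 0.186 with DMSO and 0.315, 0.248 and 0.320 with TH588. The ratio of *POLB* to *PCNA* per length went from 0.024, 0.031 and 0.027 to 0.051, 0.061 and 0.070. Both rose in every TH588 library over every DMSO library, by 0.71 and 1.13 in mean log2 ratio (exact two-sided permutation p = 0.1 for each, 0.12 adjusted over 6 ratios). A ratio within a library shows unequal change and not which gene moved.

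**Figure D4:**
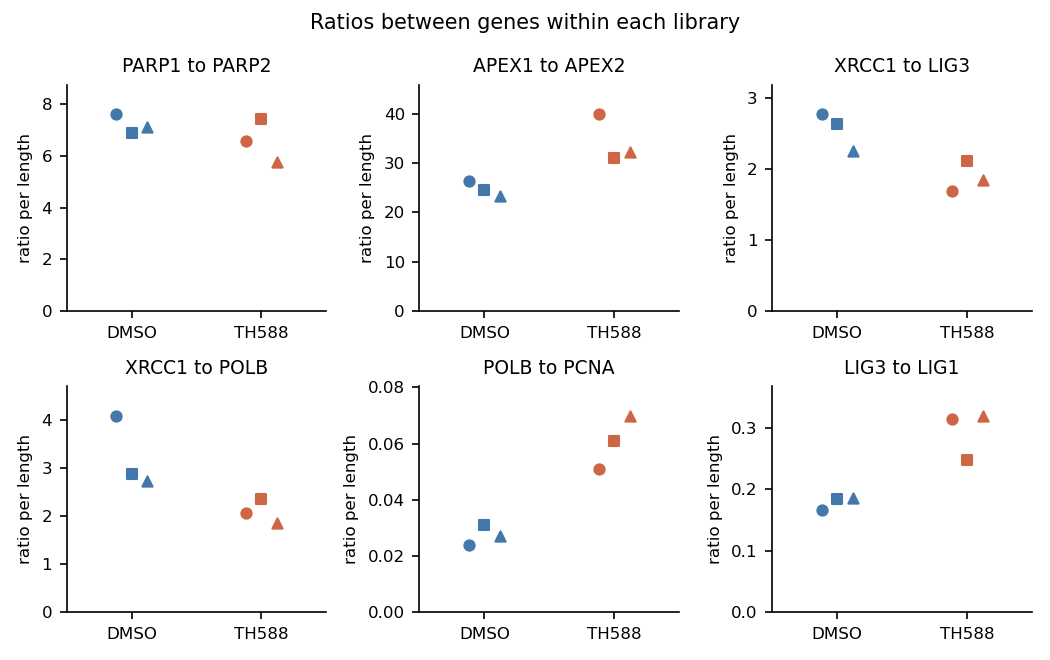
Ratios of RPKM between pairs of genes in each library, 1 panel per pair with its own axis from 0; circles, squares and triangles are replicates A, B and C. The groups overlap for *PARP1* to *PARP2* and do not overlap for the other 5 ratios.

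Enzymes that clean blocked ends or fill gaps beside the 9 genes moved both ways: of 10, 4 rose, 2 fell and 4 were not called. Of all genes tested, 24.2% were called higher and 25.3% lower. *POLL*, a polymerase related to *POLB*, rose from 4.58 to 9.66 CPM (1.08, edgeR adjusted p = 2.54e-05). *LIG4*, the end-joining ligase, rose by 0.44 on the log2 scale (adjusted p = 0.00244). *TDP1*, which frees trapped topoisomerase 1 from DNA, fell from 71.6 ± 2.87 to 47.9 ± 0.943 CPM (-0.58, adjusted p = 4.84e-05). *HMCES*, which shields sites without a base in single-stranded DNA, fell from 49.5 to 40.0 CPM (-0.31, adjusted p = 0.00525). *DNPH1*, which hydrolyses a modified nucleotide, rose from 16.6 to 28.6 CPM (0.78, adjusted p = 6.88e-05).

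Genes of poly(ADP-ribose) turnover moved both ways: of 9, 2 rose, 3 fell and 4 were not called. These counts are near the shares over all genes tested, 24.2% higher and 25.3% lower. The largest fall was in *MACROH2A1*, from 214 to 122.1 CPM (-0.81, edgeR adjusted p = 2.16e-05), which encodes a histone variant whose macrodomain can bind ADP-ribose. *PARG*, which degrades the chains, fell from 108.1 to 83.2 CPM (-0.38, edgeR adjusted p = 0.000976), and *HPF1*, which turns *PARP1* and *PARP2* towards serine, fell from 14.5 to 10.7 CPM (-0.42, adjusted p = 0.0156). *PARP3*, a further break-activated relative, rose from 6.03 ± 0.604 to 16.4 ± 0.921 CPM (1.44, adjusted p = 1.24e-06), and *OARD1*, which removes ADP-ribose from proteins, rose from 7.19 to 9.51 CPM (0.40, adjusted p = 0.0138). Of the 13 other PARP family genes, 11 were tested, 7 rose and 1 (*TIPARP*) fell, with a median log2 fold change of 0.43 in contrast to the fall of *PARP1* and *PARP2*. *PARP14* gave the largest of these rises, from 29.6 ± 3.72 to 81.7 ± 5.83 CPM (1.47, adjusted p = 4.03e-07), and *PARP9* rose by 0.61 on the log2 scale (adjusted p = 0.000594).

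Among genes that make NAD+, the substrate of these enzymes, 4 of 9 tested rose and 1 fell, where 49.6% of all genes tested were called. The fall was in *NAMPT*, the rate-limiting enzyme of the salvage route, from 161.9 to 111.2 CPM (-0.54, edgeR adjusted p = 0.000192). *QPRT* and *NADSYN1*, of the routes from tryptophan and nicotinic acid, rose by 1.78 and 1.10 on the log2 scale. Of 8 genes listed as regulators of *XRCC1* and *POLB*, 5 fell and none rose, led by *USP7* (-0.65) and *CSNK2A1* (-0.45), the catalytic subunit of the kinase that phosphorylates *XRCC1*. Of 8 mitochondrial repair genes, 7 fell, led by *TFAM* (-0.81) and *PRIMPOL* (-0.80), but only 4 did so when library size alone was normalized for. With that scaling, 2786 of all genes tested were called lower, against 4013 in the main fit.

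**Figure D5:**
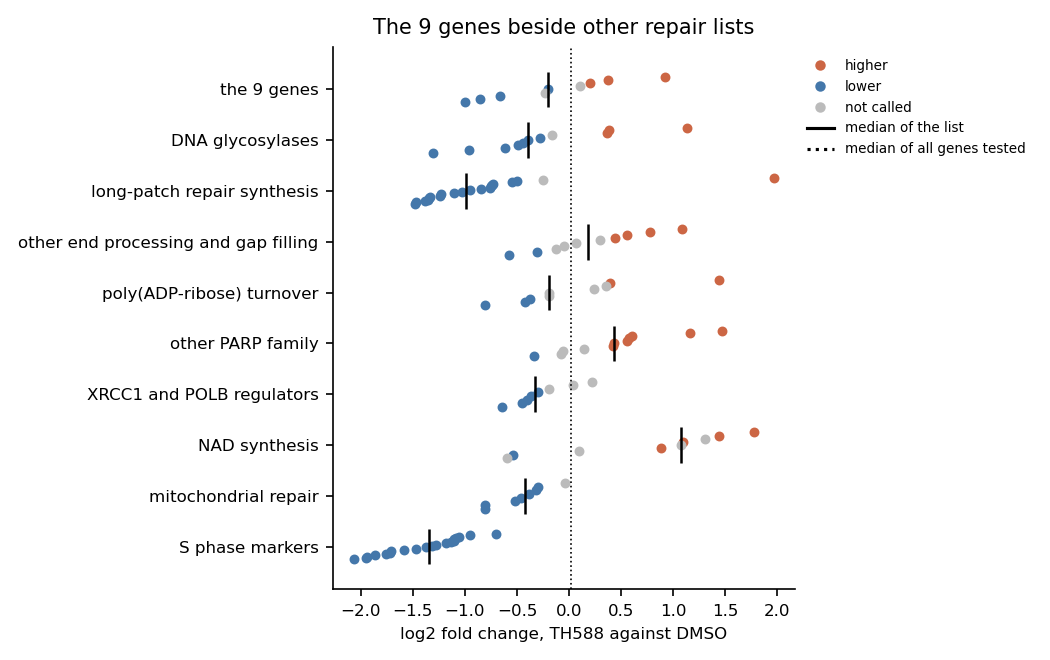
Log2 fold change, TH588 against DMSO, of every tested gene in the 9 repair genes and in 9 other lists; colours give the call at an adjusted p under 0.05, black lines the list medians and the dotted line the median of all genes tested (0.02). The 9 genes spread to both sides, while 18 of 20 long-patch genes and 7 of 8 mitochondrial repair genes are called lower.

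The genes whose pattern over the 6 libraries was most like that of *PARP1*, the gene with the largest fall, were *TIMELESS* (Pearson r = 0.9999), *CKAP5* (0.9995) and *LYAR* (0.9994), among 9762 genes searched. Those most like *APLF*, the gene with the largest rise, were *WSB1* (0.9975), *MOSPD2* (0.9965) and *MAP1LC3B* (0.9939). These values mostly carry the difference between the groups and are a description. *NUDT1*, which encodes the protein that TH588 was made to inhibit, had a mean of 16.2 CPM in DMSO and 9.60 CPM in TH588 libraries (log2 fold change -0.75, edgeR adjusted p = 0.000232).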

How the data were processed

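RNA from A2780 cells was sequenced from libraries made with a TruSeq RNA v2 kit, 3 per treatment, which the methods call biological triplicates. The authors aligned reads to GRCh38 with TopHat, counted them per gene with featureCounts 1.4.6 and deposited the raw counts with a gene length for each gene. Their own comparison used DESeq2. Strand and overlap settings are not given in the sources used here, so overlapping genes cannot be told apart. *PIP4P1*, which shares 54 exon bases with *APEX1*, and *ALAS2*, which shares 3 with *APEX2*, were called higher. *CCT6B*, which shares 180 with *LIG3*, was not called. Symbols were matched by Ensembl identifier for 57754 of 58336 genes. Counts were fitted with edgeR 4.0.16 in R 4.3.3 (filterByExpr, TMM, quasi-likelihood test, no replicate block), with Benjamini-Hochberg adjustment over all 15844 genes tested. A standard error is the log2 fold change over the square root of F. Ratios were compared by exact two-sided permutation. The alternatives were other scalings, filters and thresholds, DESeq2 1.42.0, limma-voom (limma 3.58.1), a replicate block, removal of a gene length trend, and each library left out in turn. The procedure was tested on simulated data with log2 fold changes of 1 in either direction. Of 197 changed genes, 141 (71.6%) were called, and 14 unchanged genes were called as well. Replicates differed by far more than sampling noise (chi-square per degree of freedom from 25.5 to 180.7). This statistic used library totals without TMM and included *SNORD3A*, at 21.94% of TH588 replicate A and 11.20% of TH588 replicate B. It is thus not a typical spread per gene. Floors of 3 counts cover counting error only.

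The 9 genes and the lists were chosen with earlier results of these data known. The genes named are the 9, the 2 largest rises and falls of each list among called genes whose mean log2 CPM was 0 or more, and a fixed set of partners. Tested genes whose exons overlap those of the 9 are also named, as is *PROKR1*. Other genes, among them *POLD4*, *RPA3*, *CD14* and *SNORD3A*, were named after their values were seen. A gene among these partners is not reported here.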

Additional observations from a re-analysis of the deposited data

How the results depend on the processing

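Over 17 alternatives no member changed direction. *PARP1* (-1.09 to -0.89), *PARP2* (-0.89 to -0.75), *APEX2* (-0.70 to -0.54) and *APLF* (0.78 to 1.06) were called under each one, and *APTX* (0.01 to 0.20) under none. *APEX1* (-0.29 to -0.10) and *LIG3* (0.17 to 0.30) each lost their call in 9 alternatives and *POLB* (0.29 to 0.48) in 3, and *XRCC1* (-0.33 to -0.12) gained one without TH588 replicate B. The number of members called was 4 at an adjusted p under 0.01, against 7, with 1 called higher. Of all genes tested, 36.8% were called at that threshold, against 49.6%. With each library left out in turn, between 4 and 7 members were called, between 1 and 3 of them higher. The lowest values came without DMSO replicate A and without TH588 replicate C, where 42.8% and 42% of all genes tested were called. Mitochondrial repair genes called lower numbered 4 with library size only, against 7. Over all genes tested, 2786 were called lower with library size only, against 4013. Library size only also moved the median change over all genes tested from 0.02 to 0.126 (log2). The replicate letters gave no sign of pairing: deviations from the group means correlated at -0.174, -0.204 and -0.013 for letters A, B and C. For unlike letters the highest value was 0.316, between DMSO replicate A and TH588 replicate B. With 3 libraries per group such deviations are not independent, so this check cannot settle whether cultures were paired. With the letters as a replicate block, 5 members were called, *APEX1* (edgeR adjusted p = 0.102) and *LIG3* (edgeR adjusted p = 0.112) being lost. Of all genes tested, 45.4% were called with that block. Depth limited *APLF* most, at 68 counts in TH588 replicate A.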
